A study of Homo sapiens with 8 samples.

Results

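The 4 libraries described here are the NYNRIN knockdown libraries of the study. They were chosen by label alone: shNYNRIN replicates 3 and 4, deposited in the second of 2 tables, were set against shNYNRIN replicates 1 and 2, deposited in the first. The former are called the deeper and the latter the shallower knockdown libraries, after their NYNRIN levels. Together they are 4 of the 8 libraries of the series. The other 4 carried a control hairpin (shCTL), replicates 1 and 2 in the first table and replicates 3 and 4 in the second. Replicate numbers follow the sample titles. The library names number the controls the other way: shCTL-3 and shCTL-4 lie in the first table and shCTL-1 and shCTL-2 in the second. Library names of the knockdown libraries keep the title numbers. Whether library numbers mark a batch is not known. All 8 came from cells labelled KG-1a, a human acute myeloid leukaemia line, that had been given a lentivirus and sorted by flow cytometry, and RNA was amplified with a template-switching kit for low input. The labels give the shNYNRIN libraries the genotype NYNRIN-knockdown and the shCTL libraries the genotype WT, and both groups carry a hairpin vector. The hairpin sequences, the number of different hairpins and the time after infection are not known here. Nothing in the labels says that replicates were separate cultures, so the p-values below reflect how far these libraries scatter, and that scatter may be technical.

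A short hairpin RNA is trimmed in the cell to a guide strand that leads the RNA-induced silencing complex to matching transcripts. Full pairing leads to cleavage of the transcript, and pairing of the first bases of the guide with a 3′ UTR, as microRNAs do, can lower other transcripts. NYNRIN encodes a protein with a NYN domain, a ribonuclease fold, joined to a region related to retroviral integrase. TXNIP, the gene named beside NYNRIN in the title of the series, encodes an arrestin-domain protein that binds and inhibits thioredoxin, and its transcription is driven by glucose through MondoA.

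The table holds the depth of knockdown and anything else that differed between the tables, and these cannot be told apart. Many results are therefore given with the same difference, or the levels, of the shCTL libraries of the tables, which carried no NYNRIN hairpin. If library numbers followed a batch, the table differences of control and knockdown would hold it with opposite signs. The difference between them would then add it up, and this was not tested. For most named genes the difference between the table differences is given at the end. ShCTL replicate 3, deposited in whole numbers, entered no test, so the controls of the second table rest on shCTL replicate 4. In the plots the first and second tables are numbered in that order. A table difference is the mean log2(FPKM + 1) of the second table's libraries minus that of the first table's libraries, and FPKM are fragments per kilobase of transcript, scaled to the mapped total of each library. Passing the test means an adjusted p under 0.05 in limma over 12691 genes.

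The label was checked against marker genes. CD34, a stem and progenitor antigen that KG-1a cells are known to carry, lay between 0.681 and 1.79 FPKM in the 7 FPKM libraries, and CD7 and PROM1 were not among the genes tested. Of 10 markers listed for KG-1a blasts 8 were tested, with SPN (CD43) at 64.8 and 65.7 FPKM in the shallower knockdown libraries and 73.9 and 74.1 in those of the second table. Of 12 erythroid markers 10 were tested and of 8 megakaryocyte markers 7, with ITGA2B, a platelet integrin chain, at 518 to 589 FPKM and HBB at 31.4 to 50.8. These genes were chosen for this check after their values were seen. The level of CD34 goes against the label, and the cells are called below by their libraries. Of the T cell, B cell, NK cell, monocyte, granulocyte and stromal lists 2 of 11, 2 of 8, 1 of 8, 3 of 12, 2 of 11 and 2 of 10 markers were tested. Between the knockdown arms 5 of 8 blast markers were higher in the second table, 3 of 10 erythroid markers higher and 1 lower, 3 of 7 megakaryocyte markers lower, 2 of 6 mast cell markers higher and both T cell markers, CD4 and IL7R, higher, beside 8.42% and 8.38% of all genes tested. Of the monocyte and granulocyte markers 1 each was higher. Their part in the results below was not tested.

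Over the 13068 genes listed in both tables the 7 FPKM libraries summed to between 307554 and 311536, and 12287 to 12557 genes had at least 1 FPKM. Read counts of single libraries were not used here, but low values move in steps of what 1 read is worth. The commonest ratio of low values put the depth of shNYNRIN replicate 1 at 0.928 times that of replicate 2, and that of replicate 3 at 1.03 times that of replicate 4. Across the tables it put replicates 1 and 2 at 0.645 to 0.713 times the depth of replicates 3 and 4. Over 5586 genes of at least 10 FPKM the SD of the log2 difference was 0.0934 between replicates 1 and 2, 0.0687 between replicates 3 and 4, and 0.193 to 0.199 for the 4 pairs across the tables. Depth thus moved with the table, and its part in the results was not tested.

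NYNRIN stood at 6.98 and 7.30 FPKM in the shallower knockdown libraries and at 2.83 and 2.84 in those of the second table. The shCTL libraries held 12.2 and 12.5 FPKM in the first table and 10.4 in replicate 4, with 10 listed for replicate 3. Knockdown lay below control in each table, and the knockdown arms do not overlap. Knockdown left 57.9% of the control mean in the first table and 27.4% of shCTL replicate 4 in the second table. The table difference was -1.08 (SE 0.068, n = 2 against 2, adjusted p = 0.000904), and that of the controls was -0.23 (adjusted p = 0.0631). The difference between these table differences was -0.85 (adjusted p = 0.00127), larger than the spread between these libraries.

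TXNIP did not follow that order. Its levels were 139 and 141 FPKM in the shallower libraries and 103 and 101 in the deeper ones, against 80.6 and 77.9 in the controls of the first table and 95.4 in shCTL replicate 4. The transcript was thus highest where NYNRIN was reduced less, and the table difference of -0.45 (adjusted p = 0.00101) ran opposite to the 0.26 (adjusted p = 0.00748) of the controls. ARRDC4, an arrestin-domain relative that shares the glucose-driven control of TXNIP, stood at 21.5 and 24.0 FPKM in the shallower libraries and 14.9 in each deeper one, beside 11.8 to 13.1 in the controls. Its table difference was -0.57 (adjusted p = 0.00376), beside -0.04 (adjusted p = 0.804) in the controls. Of 9 tested genes of the list of TXNIP, arrestin-domain genes and MondoA-MLX, these 2 were lower and 1 was higher in the second table, beside 8.38% and 8.42% of all genes, and the higher call was lost without any 1 of the 4 libraries.

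**Figure D1:**
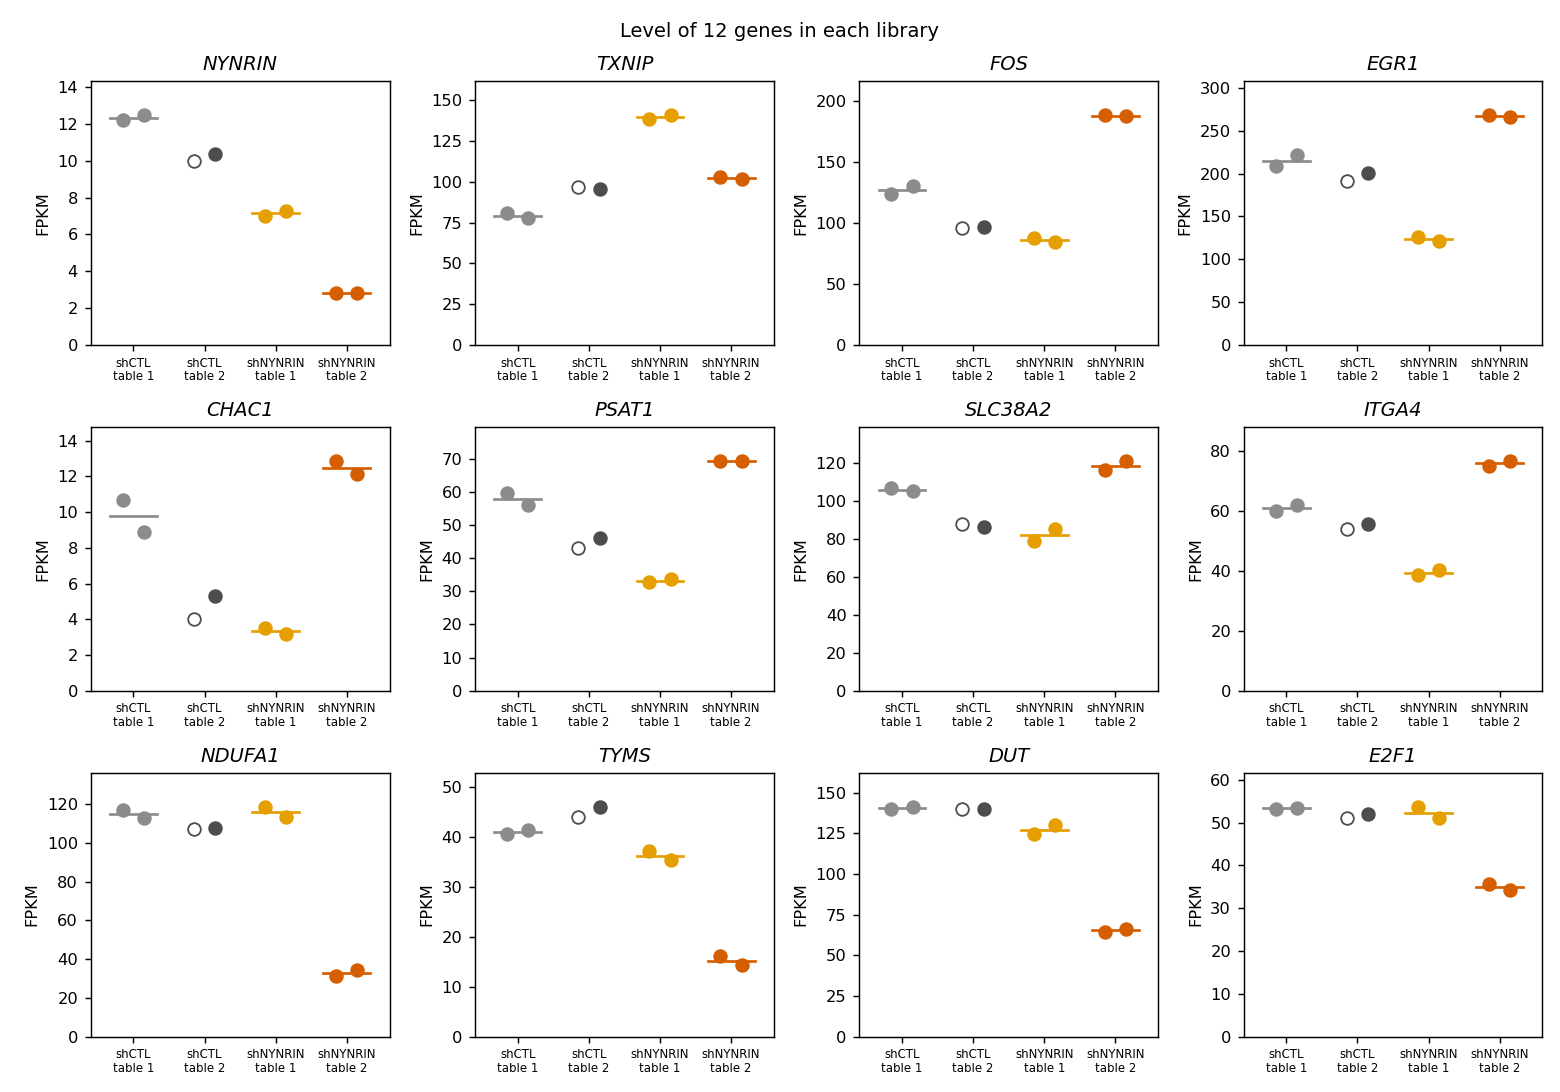
FPKM of 12 genes in each library (vertical axis, from 0), by hairpin and table; filled points are single libraries, lines are means of 2 libraries, and the open point is shCTL replicate 3, given in whole numbers. NYNRIN falls in steps from control to deeper knockdown, FOS, EGR1, CHAC1, PSAT1, SLC38A2 and ITGA4 are lowest in shallower knockdown and highest in deeper knockdown, and NDUFA1, TYMS, DUT and E2F1 stand apart in deeper knockdown.

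Across all genes tested, 2132 of 12691 (16.8%) differed between the deeper and the shallower knockdown libraries, 1068 of them higher (8.42%) and 1064 lower (8.38%) in the second table. The median size of the called differences was 0.30 on the log2 scale, and 44 genes differed by at least 2-fold on that scale, 25 upward and 19 downward. The count rested on the second table's libraries: without shNYNRIN replicate 3 it was 589, without replicate 4 it was 661, and without replicate 1 or 2 it was 2179 or 2357. The controls differed between the tables at 1606 genes (12.7%), 757 higher (5.96%) and 849 lower (6.69%). Of the 516 genes called in both, 366 had opposite signs and 150 the same sign, and over the 12691 genes the table differences of knockdown and control had a Pearson r of -0.099, genes not being independent replicates. Without shCTL replicate 1 or 2 the control count was 547 or 526.

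The table difference of the knockdown libraries differed from that of the controls at 2667 genes (21.0%), higher at 1349 (10.6%) and lower at 1318 (10.4%). Of the 2132 genes called between the knockdown arms, 1379 (64.7%) were also called there with the same sign, 700 higher and 679 lower. Without shNYNRIN replicate 3 or 4 the count for the difference was 1540 or 1479. Most called genes lay on opposite sides of their controls in the first and second tables. Of the 1068 genes called higher, 743 (69.6%) lay below the controls of their own table in the first table and above them in the second table, and 223 (20.9%) lay above the controls in both. Of the 1064 called lower, 736 (69.2%) lay above the controls in the first table and below them in the second table, and 176 (16.5%) lay below the controls in both. Among all tested genes these patterns held for 23.7% (below, then above), 27.0% (above, then below), 30.3% (above in both) and 19.0% (below in both). These shares are a description, since the same libraries made the calls. The controls of each table also carry the other pair of numbers in their library names. The part of this in the shares, and in the opposite signs of knockdown and control, was not tested.

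Immediate early genes, transcription factors and signalling genes switched on within minutes of growth factor or stress signals, were among the groups with more higher than lower members. Of 18 tested, 9 were higher and 3 lower in the deeper knockdown, beside 8.42% and 8.38% of all genes, and the median was 0.39 in the knockdown libraries and -0.08 in the controls, beside -0.01 for all genes. FOS stood at 87.4 and 84.3 FPKM in the shallower and at 188 in each deeper library, with 124 and 129.9 in the controls of the first table and 96.7 in shCTL replicate 4. The shallower libraries thus lay below their controls and the deeper ones above theirs. EGR1, a zinc finger transcription factor, had 127 and 122 FPKM in the shallower and 268 and 266 in the deeper libraries, on either side of controls at 209, 222 and 200.3.

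FOSB had 41.7 and 40.9 FPKM in the shallower and 104 and 101 in the deeper libraries, and NR4A1, an orphan nuclear receptor, had 3.99 and 4.41 against 9.58 and 10.1. The table differences were 1.29 for FOSB (SE 0.033, adjusted p = 9.57e-05), 1.06 for NR4A1 (adjusted p = 0.00107), 1.12 for FOS (adjusted p = 9.57e-05) and 1.10 for EGR1 (adjusted p = 9.57e-05). In the controls the table differences were -0.15 for FOSB, -0.39 for FOS and -0.10 for EGR1, of which that of FOS passed the test (adjusted p = 0.00293). Among the 3 that were lower, BTG2, an antiproliferative gene, fell by 0.53 in the knockdown and by 0.51 in the control libraries, and the difference between these was -0.02 (adjusted p = 0.776). The count of 9 higher members was 9 without shNYNRIN replicate 3 and 8 without replicate 4. Outside this list, PTGS2 (cyclooxygenase-2) had 6.25 and 6.10 FPKM against 16.0 and 16.7, a table difference of 1.27 (adjusted p = 0.00029). GADD45B, a stress-induced growth arrest gene counted with the p53 targets, was higher by 1.22.

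The promoter of EGR1 is shown because it holds the CArG box, the site known for serum response factor, a factor that drives immediate early genes. The box was searched by its name, as CC, 6 A or T and GG, on both strands, in RefSeq promoter sequences of GRCh38.p14 from 250 bases before to 50 after the start. It was found in 1.29% of 27305 promoters and in 1.01% of the 8939 promoters of tested genes. Of 14 immediate early genes with a promoter sequence, 2 had it, EGR1 and SRF. The EGR1 promoter, chr5:138465229-138465528 on the plus strand, holds 2 boxes, in capitals, and a match is a description and not a bound site.
EGR1: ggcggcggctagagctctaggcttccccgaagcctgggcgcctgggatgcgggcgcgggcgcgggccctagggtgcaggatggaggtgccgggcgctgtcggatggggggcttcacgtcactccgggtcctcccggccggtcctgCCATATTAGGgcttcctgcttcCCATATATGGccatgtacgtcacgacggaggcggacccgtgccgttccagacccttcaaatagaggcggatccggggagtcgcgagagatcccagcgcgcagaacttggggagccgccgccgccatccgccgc

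Genes that damp ERK signalling, the kinase pathway upstream of many immediate early genes, were higher too. Of 15 tested ERK feedback genes, 8 were higher and none lower (2 lower at an unadjusted p under 0.05 in limma), beside 8.42% and 8.38% of all genes. The median was 0.35 in the knockdown and -0.23 in the control libraries. DUSP6, the phosphatase that switches ERK off, had 15.3 and 17.1 FPKM in the shallower and 23.3 in each deeper library, against 16.8, 17.03 and 10.6 in the controls. Its table difference was 0.50 (adjusted p = 0.00529) and that of the controls was -0.63 (adjusted p = 0.0034), so both arms contributed to a difference of 1.13 (adjusted p = 0.000657). ETV5, an ERK-induced ETS factor, had 11.5 and 11.3 FPKM against 17.5 and 16.1, while the controls held 11.3 to 12.2. PHLDA1, also of this list, was higher by 1.06. Without shNYNRIN replicate 3 or 4 the count of higher members was 4.

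Genes of amino acid supply made up the second large group that was higher in the deeper knockdown. CHAC1, which degrades glutathione and is a classical target of the stress factor ATF4, stood at 3.51 and 3.16 FPKM in the shallower and at 12.8 and 12.1 in the deeper libraries. Its controls were at 10.7 and 8.89 in the first table and at 5.32 in shCTL replicate 4, so the shallower libraries were the lowest and the deeper ones the highest of all. The table difference was 1.64 (SE 0.069, adjusted p = 0.000309), that of the controls -0.77 (adjusted p = 0.0087), and the difference between them 2.40 (adjusted p = 0.00029). Of 15 tested ATF4 and integrated stress response targets, 6 were higher and 1 was lower, beside 8.42% and 8.38% of all genes, with a median of 0.29. DDIT4, an inhibitor of mTORC1, had 15.1 and 12.9 FPKM against 27.8 and 27.3, and ATF3 had 4.56 and 4.72 against 8.999 and 9.56. ATF5, which belongs to the same list, went the other way, from 5.64 and 5.29 FPKM to 3.86 and 3.55, a table difference of -0.46 (adjusted p = 0.0131) that did not pass without shNYNRIN replicate 3 or 4.

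PSAT1 and PHGDH, enzymes of serine synthesis, were higher in the deeper libraries. PSAT1 had 32.7 and 33.7 FPKM in the shallower and 69.2 in each deeper library, with controls at 59.5, 56.1 and 46.0. PHGDH had 28.2 and 25.5 FPKM against 47.5 and 46.3, with controls at 43.2, 43.3 and 36.2. For both enzymes the shallower libraries lay below every control and the deeper ones above. The table differences were 1.04 (adjusted p = 0.000132) and 0.78 (adjusted p = 0.00114). Of 13 tested serine and one-carbon enzymes, 5 were higher and 2 lower, beside 8.42% and 8.38% of all genes. Without shNYNRIN replicate 3 or 4 the count of higher members was 3.

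Of 14 tested amino acid and creatine transporters 10 were higher and 1 was lower, beside 8.42% and 8.38% of all genes. The median was 0.36, beside -0.20 in the controls. SLC38A2, a sodium-coupled carrier of neutral amino acids, had 79.2 and 85.2 FPKM in the shallower and 117 and 121 in the deeper libraries, against 106.8, 105.3 and 86.6 in the controls. SLC7A11, the cystine carrier that feeds glutathione synthesis, had 1.93 and 2.45 FPKM against 4.92 and 5.20, and SLC7A5 had 33.4 and 32.5 against 43.4 and 44.5. The 1 lower member was SLC6A8, the creatine carrier, whose knockdown levels of 4.20, 4.18, 3.23 and 2.73 FPKM moved little beside controls of 2.61 and 2.84 in the first table and 13.7 in shCTL replicate 4. Its difference between table differences of -2.36 (adjusted p = 0.000257) therefore came mainly from the controls. The lower call of SLC6A8 between the knockdown arms was lost without any 1 of the 4 libraries. Without shNYNRIN replicate 3 or 4 the count of higher transporters was 6 or 5.

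Cytosolic aminoacyl-tRNA synthetases, which charge tRNAs with amino acids, were higher at 10 of 18 and lower at none (2 at an unadjusted p under 0.05 in limma), beside 8.42% and 8.38% of all genes. The median was 0.15 in the knockdown and -0.03 in the control libraries. AARS1, the alanine enzyme, had 45.4 and 43.9 FPKM in the shallower and 65.1 and 62.4 in the deeper libraries, with controls at 56.8, 56.3 and 50.9. The table difference was 0.50 (adjusted p = 0.00145). Leaving out shNYNRIN replicate 3 or 4 brought the count of higher members to 4.

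The CHAC1 promoter is shown because it holds the element TGATGNAA, known as a site of C/EBP and ATF4 dimers. The element, searched on both strands, occurred in 3.67% of all 27305 promoters and in 1.71% of those of tested genes. It occurred in 3 of the 13 stress response targets with a promoter sequence, ASNS, ATF3 and CHAC1. In the CHAC1 promoter, chr15:40953221-40953520 on the plus strand of GRCh38.p14, the element is in capitals and lies on the opposite strand.
CHAC1: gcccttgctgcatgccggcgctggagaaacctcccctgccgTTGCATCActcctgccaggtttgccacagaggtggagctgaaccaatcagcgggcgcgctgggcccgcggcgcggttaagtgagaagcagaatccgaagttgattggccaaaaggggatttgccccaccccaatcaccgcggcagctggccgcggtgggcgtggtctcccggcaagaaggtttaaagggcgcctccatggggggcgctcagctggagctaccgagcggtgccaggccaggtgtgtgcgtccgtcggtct

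DNA replication genes were lower in the deeper knockdown. Of 45 tested, 23 were lower and none higher (also 0 at an unadjusted p under 0.05 in limma), beside 8.38% and 8.42% of all genes. The median was -0.16 in the knockdown and 0.15 in the control libraries. In the control libraries 14 were higher and 1 lower, beside 5.96% and 6.69% of all genes. TYMS, thymidylate synthase, had 37.0 and 35.3 FPKM in the shallower and 16.1 and 14.2 in the deeper libraries, with controls at 40.6, 41.4 and 45.9. DUT, which removes dUTP from the nucleotide pool, had 125 and 130.2 FPKM against 64.4 and 66.3, with controls between 139.8 and 141. In both cases the deeper libraries stood apart and the shallower ones lay just below the controls. E2F1, a factor that switches on replication genes, had 53.6 and 51.0 FPKM against 35.7 and 34.2, and MCM10 had 27.1 and 28.0 against 19.5 and 18.6.

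The table differences of these 4 genes were -1.20 for TYMS (SE 0.064, adjusted p = 0.00059), -0.95 for DUT (adjusted p = 0.000212), -0.57 for E2F1 (adjusted p = 0.0014) and -0.51 for MCM10 (adjusted p = 0.00203). In the controls none of the 4 passed the test, with table differences from -0.04 to 0.16. Without shNYNRIN replicate 3 or 4 the count of lower members was 10. Without the mean-variance trend of the test it was 9.

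Mitotic genes were lower at 13 of 31 and higher at none (also 0 at an unadjusted p under 0.05 in limma), beside 8.38% and 8.42% of all genes. The median was -0.13 in the knockdown and 0.09 in the controls. CDC20, an activator of the anaphase-promoting complex, had 199 and 187 FPKM in the shallower and 144 and 141 in the deeper libraries. Its controls were at 139 and 129 in the first table and at 159 in shCTL replicate 4, so the shallower libraries were the highest. CCNA2, cyclin A2, had 74.3 and 78.0 FPKM against 54.9 and 57.6, with controls between 61.3 and 70.6. Leaving out shNYNRIN replicate 3 or 4 brought the count to 6 or 7. Inhibitors of cyclin-dependent kinases, which hold cells in G1, differed in direction. CDKN2D (p19) had 88.1 and 86.6 FPKM against 42.5 and 42.3, CDKN1A (p21) had 9.95 and 9.73 against 6.19 and 6.13, and CDKN2C (p18) had 93.5 and 87.2 against 127 and 125. Their table differences were -1.03 (adjusted p = 0.000128), -0.60 (adjusted p = 0.00231) and 0.48 (adjusted p = 0.00203). In the controls they were -0.27 for CDKN2D, 0.31 for CDKN1A and -0.07 for CDKN2C, so that of CDKN2D had the same sign in both.

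The largest fall among all named genes was that of NDUFA1, an accessory subunit of respiratory complex I. It stood at 118 and 113 FPKM in the shallower and at 31.4 and 34.1 in the deeper libraries, while the controls lay between 108 and 117, with 107 listed for shCTL replicate 3. The table difference was -1.79 (SE 0.049, adjusted p = 9.57e-05), beside -0.09 (adjusted p = 0.333) in the controls. NDUFB5, another complex I subunit, had 15.4 and 18.1 FPKM against 8.80 and 9.17, and ATP5PD, of the ATP synthase stalk, had 33.8 and 32.0 against 22.6 and 23.6. Of 57 tested nuclear-encoded subunits 17 were lower and 1 was higher, beside 8.38% and 8.42% of all genes. The median was -0.09, beside 0.00 in the controls. The count of lower subunits was 7 or 6 when shNYNRIN replicate 3 or 4 was left out. SDHB, of complex II, varied within each arm, at 65.7, 49.7, 25.4 and 37.1 FPKM in the knockdown libraries, and shCTL replicate 4 held 14.5 beside 61.0 to 68.8 in the first table and 45 in replicate 3. With shCTL replicate 3 in place of replicate 4 its difference between table differences turned from 1.22 to -0.37.

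The genes with the largest falls came from several processes. CHMP3, a subunit of the ESCRT-III membrane scission complex, had 14.1 and 15.6 FPKM against 5.87 and 6.86. ATG9A, an autophagy scramblase, had 27.6 and 25.1 against 13.3 and 13.0, and SEC22B, a vesicle fusion protein, had 22.2 and 23.3 against 11.2 and 11.5. These 3 genes share no pathway list with TYMS, DUT or NDUFA1, but the 3′ UTRs of all 6 share a sequence. The 6 were grouped here for that sequence. MT2A, CDKN2D and THBS1, also among the largest falls with table differences of -1.09, -1.03 and -1.01, had 0 copies of it in the 3′ UTR. In the longest annotated 3′ UTR of each gene in GENCODE 29, 7588 genes of at least 5 FPKM were searched on the transcript strand for every run of 7 bases that occurred in at least 100 of them, 14745 in all. Genes with GAAGGTT had the lowest mean table difference relative to genes without it, -0.12 over 751 genes. Genes with GTACTTA had the highest, 0.08 over 680 genes. Both were picked for these values, so no test is given.

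The sites are printed because 33 of the 50 genes with the largest falls (66%) held GAAGGTT, beside 9.90% of the 7588 genes and 1 of the 50 with the largest rises. GTACTTA was held by 17 of the 50 largest rises (34%), beside 8.96% of all and 5 of the 50 largest falls. Each line gives 23 bases of a 3′ UTR of GRCh38 with the heptamer in capitals, first GAAGGTT in genes that were lower and then GTACTTA in genes that were higher in the deeper libraries. The sites lie at chrX:119876586-119876608 (plus strand) for NDUFA1, chr18:673304-673326 (plus) for TYMS, chr15:48342305-48342327 (plus) for DUT, chr2:86505689-86505711 (minus) for CHMP3, chr2:219219783-219219805 (minus) for ATG9A and chr1:120156499-120156521 (minus) for SEC22B. Those of GTACTTA lie at chr21:26837215-26837237 (minus) for ADAMTS1, chr9:72900832-72900854 (minus) for ALDH1A1 and chrX:23786151-23786173 (plus) for SAT1.
NDUFA1: ccctgctaGAAGGTTacagtgta
TYMS: cttataaaGAAGGTTggtgaatt
DUT: ccgcaattGAAGGTTgtatgtaa
CHMP3: attttggaGAAGGTTctgtttgt
ATG9A: ctaaaaaaGAAGGTTtctaaatt
SEC22B: cagtatgtGAAGGTTaattgctg
ADAMTS1: gtttcctgGTACTTAtcaaatac
ALDH1A1: ctcttgaaGTACTTAacatacac
SAT1: acacactgGTACTTAgagtttct

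For GAAGGTT the share of lower genes went with the number of copies. Of genes without GAAGGTT in the 3′ UTR 10.2% were lower, with 1 copy 23.7% and with 2 copies 38.5% (91 genes). Where the heptamer lay in the coding sequence alone the share was 18.7%, and where the transcript held none it was 9.26%. The median table difference was -0.07 for genes with a copy and 0.01 for those without, and in the controls both medians were 0.01. The median 3′ UTR was 3039 bases long in genes with a copy and 1189 in those without, and the part of this length was not tested. For GTACTTA, 24.1% of genes with 1 copy, 21.9% of the 64 with 2 copies, 4 of the 7 with 3 or more and 10.2% of those without were higher, with similar control medians (0.01 each) and a similar gap in length (2956 against 1205 bases).

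Single pairs of libraries make up the value by which the heptamers were picked, and the contrasts with controls reuse the same knockdown libraries. Both show the spread and make-up of that value and give no independent support. GAAGGTT was the lowest of the 14745 both in replicate 3 minus replicate 1 (-0.11) and in replicate 4 minus replicate 2 (-0.12), while its mean difference was 0.02 between replicates 2 and 1, 0.01 between replicates 4 and 3 and 0.00 between the tables in the controls. Set against the controls of the same table, genes with GAAGGTT had a mean difference of -0.12 in the second table, again the lowest, and -0.00 in the first table. GTACTTA was the highest in both pairs across the tables (0.10 and 0.06), beside 0.04 between replicates 2 and 1, and 14th from the highest (0.08) in the difference of table differences. For this heptamer the order of the tables was reversed: knockdown minus control was -0.06 in the first table, the lowest of all heptamers there, and 0.01 in the second table. The lower levels of genes with GAAGGTT relative to controls were thus found in the deeper knockdown libraries, and those of genes with GTACTTA in the shallower ones. The heptamers with the next lowest values in the knockdown comparison, TGAAGGT (-0.07) and AAGGTTA (-0.07), overlap GAAGGTT by 6 bases.

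NYNRIN itself carries each heptamer once. In its transcript of 7857 bases, whose coding part runs from base 319 to 6012, GAAGGTT lies at bases 5115 to 5121 and GTACTTA at bases 5221 to 5227, both in the coding sequence and 106 bases apart. They are shown with their surroundings on the plus strand of chromosome 14, at chr14:24416534-24416563 and chr14:24416640-24416669. Of 221 genes whose coding sequence was 5000 to 7000 bases long, 31.2% held GAAGGTT, 14.9% held GTACTTA and 5.43% held both. Whether either sequence corresponds to a hairpin used in these cells was not tested, as no hairpin sequence was at hand.
NYNRIN, GAAGGTT: aggcagcgagttGAAGGTTattgagtcccc
NYNRIN, GTACTTA: ggccataagcatGTACTTAttgtggctgac

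**Figure D2:**
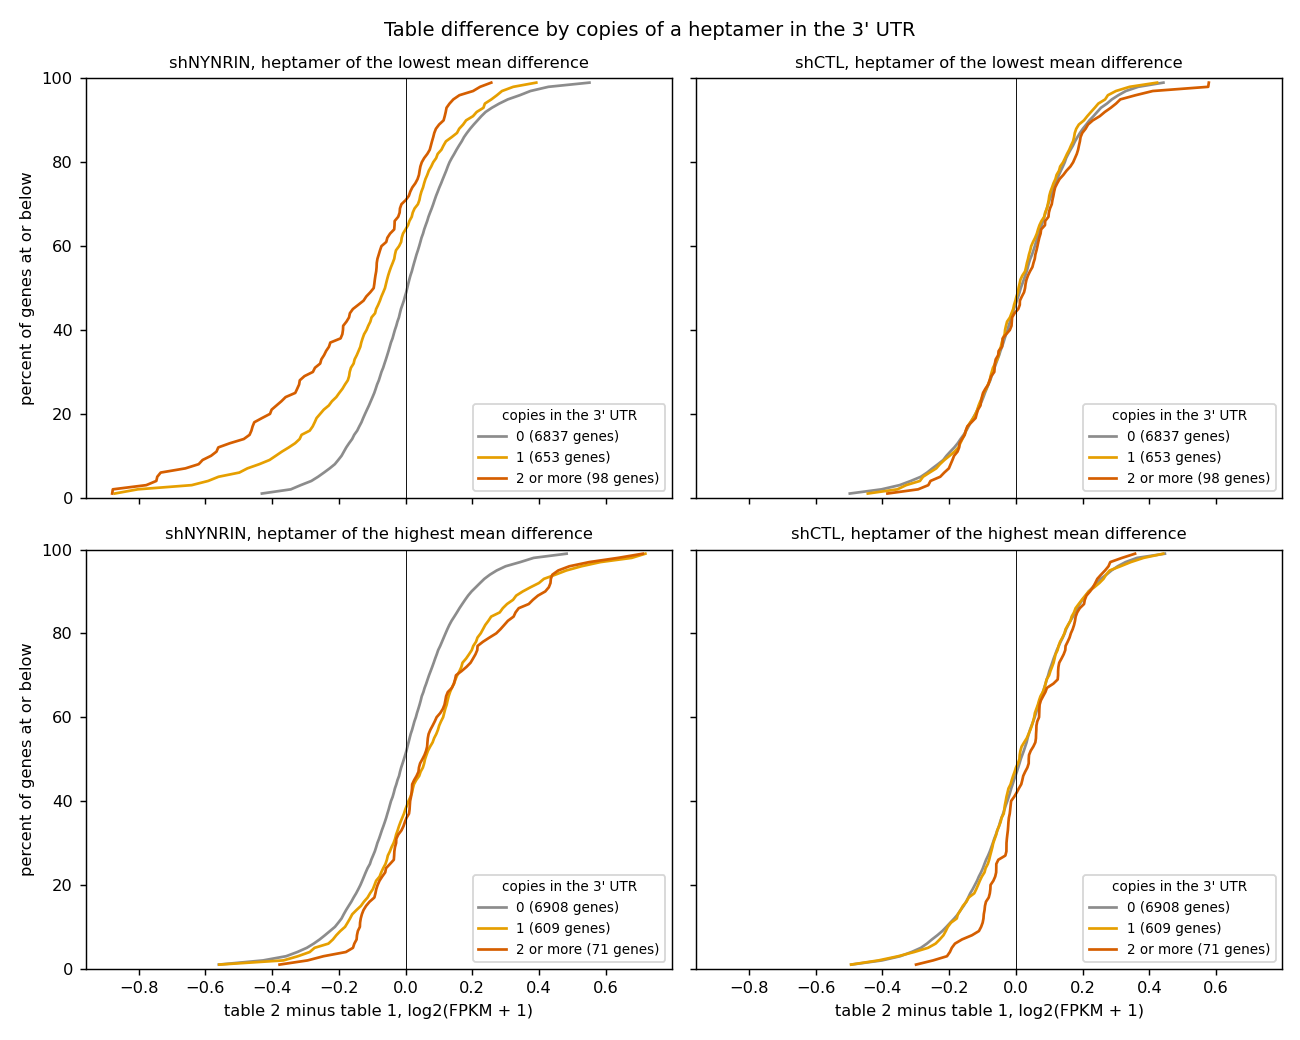
Percent of genes (vertical) at or below each table difference in log2(FPKM + 1) (horizontal), for shNYNRIN (left) and shCTL (right) libraries, by the number of copies in the 3′ UTR of the heptamer with the lowest mean (GAAGGTT, top) or the highest (GTACTTA, bottom). In the knockdown libraries the curves of genes with copies are shifted to lower values at the top and to higher ones at the bottom, and in the control libraries the curves lie close together.

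The carriers of GTACTTA that were higher included genes of known function in stem cells and stress. ALDH1A1, an aldehyde dehydrogenase used as a stem cell marker, had 43.5 and 43.3 FPKM in the shallower and 86.6 and 88.5 in the deeper libraries, with controls at 58.4, 56.3 and 35.0. SAT1, which acetylates polyamines for breakdown, had 51.3 and 59.7 against 94.5 and 93.5, and both genes were chosen after their values were seen. ADAMTS1, a secreted metalloprotease, had 4.15 and 4.36 against 12.4 and 12.3, with controls at 4.75 to 5.25. TXNIP also holds 1 copy of GTACTTA in its 3′ UTR and was higher in the shallower libraries, against the direction of these 3 carriers.

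Carriers are counted here for single lists, where counts are small. Over all genes searched, GAAGGTT was held by 193 of 888 lower genes and GTACTTA by 165 of 866 higher genes. Of the 23 lower DNA replication genes 5 held GAAGGTT, of the 13 lower mitotic genes 2 and of the 17 lower respiratory subunits 3. Genes outside the 7588 searched are counted here as not holding a heptamer. The median of the 38 replication genes not found to hold either heptamer was -0.14, beside -0.16 for the list. None of the 9 higher immediate early genes, 8 higher ERK feedback genes or 6 higher stress response targets was found to hold GTACTTA. The same held for the 10 higher transporters and the 10 higher synthetases. Few members could: of all tested members, 1 stress response target and 1 synthetase were found to hold it. No tested immediate early gene, ERK feedback gene or transporter was. SLC7A11, among the higher transporters, was not searched. Of the 11 higher haematopoietic transcription factors 3 held GTACTTA, as did 3 of the 5 higher blast markers. All 4 lower cholesterol and fatty acid synthesis genes and both lower lysosome and autophagy genes held GAAGGTT.

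NFE2L2, the factor NRF2 that switches on antioxidant genes, had 9.01 and 9.65 FPKM in the shallower and 15.9 and 16.1 in the deeper libraries, with controls between 14.2 and 15.2. The shallower libraries were therefore the ones apart from the controls. Of 35 tested thioredoxin, glutathione and NRF2 enzymes 7 were higher and 4 lower, with a median of 0.01, beside 8.42% and 8.38% of all genes. CAT, catalase, had 42.8 and 40.4 FPKM against 28.8 and 28.7, with controls between 39.4 and 39.9, and GPX1 had 112 and 110.4 against 92.6 and 90.0. MT2A, a metallothionein that binds zinc and copper, had 42.3 and 39.9 FPKM in the shallower and 18.0 and 19.5 in the deeper libraries, a table difference of -1.09 (adjusted p = 0.000502) beside 0.36 (adjusted p = 0.0161) in the controls. The redox list had 3 higher and 3 lower members without shNYNRIN replicate 3 or 4.

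The BCL2 family has members that hold or release the brake on mitochondrial apoptosis. Of 15 tested genes 4 were higher and 3 lower, beside 8.42% and 8.38% of all genes. MCL1, an apoptosis inhibitor, had 96.3 and 107 FPKM in the shallower and 139 and 145 in the deeper libraries, with controls between 126 and 131. BBC3 (PUMA), a BH3-only activator, had 8.43 and 6.90 against 12.3 and 11.3, and PMAIP1 (NOXA) had 33.8 and 33.4 against 38.5 and 41.9. BCL2, the target of venetoclax, was low throughout, at 2.84 and 2.90 against 1.93 and 1.83 FPKM. Its table difference of -0.43 (adjusted p = 0.0275) did not pass without any 1 of the 4 knockdown libraries, and without replicate 3 or 4 the family had 2 higher and no lower members.

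Haematopoietic transcription factors were higher at 11 of 25 and lower at 2, beside 8.42% and 8.38% of all genes. The median was 0.13, beside -0.13 in the controls. In the controls none was higher (2 at an unadjusted p under 0.05 in limma) and 9 were lower, beside 5.96% and 6.69% of all genes. GATA2, a stem and progenitor factor, had 172 and 171 FPKM in the shallower and 244 in each deeper library, with controls between 204 and 217. CEBPB, a myeloid leucine zipper factor, had 11.3 and 9.66 against 15.3 and 16.8, and LMO2 had 89.8 and 92.5 against 117 in each. HHEX had 53.7 and 56.7 against 72.5 and 72.2, and its controls fell by 0.49 between the tables. Among integrins and surface proteins of myeloid blasts 7 of 18 were higher and 1 lower, beside 8.42% and 8.38% of all genes. ITGA4, the chain of the VLA-4 receptor that binds marrow stroma, had 38.5 and 40.1 FPKM in the shallower and 74.97 and 76.4 in the deeper libraries, with controls at 60.0, 61.8 and 55.6. ITGA5 had 30.4 and 29.5 against 41.1 and 41.9, and CD44 had 14.2 and 14.5 against 17.8 and 20.2. In the controls the table differences were -0.26 for LMO2, -0.20 for ITGA5 and -0.40 for CD44. The transcription factors had 6 higher members and the surface proteins 3 without shNYNRIN replicate 3 or 4.

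Heat shock chaperones, which refold proteins, showed how far the controls of the tables differed. Of 14 tested, 6 were lower and 1 was higher in the deeper knockdown, beside 8.38% and 8.42% of all genes, with a median of -0.13. In the controls 11 were higher in the second table, beside 5.96% of all genes, with a median of 0.30. HSPH1 had 29.6 and 32.2 FPKM in the shallower and 24.3 and 25.8 in the deeper libraries, but its controls rose from 20.6 and 19.5 to 36.9. DNAJA1 had 81.6 and 82.3 against 69.05 and 66.7, with controls at 70.0 and 70.9 and then 104. The order of the tables was thus opposite in knockdown and control. By the numbers of the library names, 1 and 2 against 3 and 4, the order was the same in both. Which of these the levels follow was not tested. The hypoxia target BNIP3 showed both orders with a larger control difference, at 27.5, 28.9, 25.2 and 24.7 FPKM in the knockdown libraries and 22.4, 21.2 and 51.8 in the controls. Ribosome biogenesis and polyamine genes were lower at 8 of 27, beside 8.38% of all genes, with a median of -0.11 beside 0.12 in the controls. Without shNYNRIN replicate 3 or 4 the count of lower genes was 0 or 3. For the chaperones it was 2 in either case.

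For 150 genes the tables differed the same way with and without the NYNRIN hairpin. CD24, a surface sialoprotein, had 33.8 and 33.6 FPKM in the shallower and 18.0 and 17.3 in the deeper libraries, and its controls went from 26.5 and 28.2 to 9.95. C5orf15 had 19.7 and 20.2 against 29.8 and 33.1, with controls at 19.7, 20.7 and 32.5, and the difference between its table differences was -0.03 (adjusted p = 0.833). RGS2, a regulator of G protein signalling, was higher by 0.63 in the knockdown and by 0.47 in the controls. H3-3B, a replacement histone H3 gene, was higher by 0.69 and 0.18, and the difference of 0.51 passed the test (adjusted p = 0.00133). THBS1, thrombospondin-1, had 31.5 and 32.3 FPKM against 15.1 and 15.6, with controls at 21.8, 21.7 and 18.1.

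Among the remaining large changes, HPGD, which inactivates prostaglandins, had 8.97 and 8.52 FPKM in the shallower and 18.4 and 19.9 in the deeper libraries, and its controls went from 11.6 in each library to 5.47. The table differences of 1.046 (adjusted p = 0.00065) and -0.96 (adjusted p = 0.00105) added to a difference of 2.005 (adjusted p = 0.000145). H2BC21, a histone H2B gene with a polyadenylated transcript, had 3.97 and 4.71 against 10.3 and 9.21. Of 29 tested replication-coupled histone genes 4 were higher and none lower (4 at an unadjusted p under 0.05 in limma). Beside this, 8.42% of all genes were higher and 8.38% lower. Without shNYNRIN replicate 1, 8 histone genes were higher, and without replicate 2, 7 were higher and 1 was lower. SNORD3A and RNU5A-1, small RNAs without a poly(A) tail named after their values were seen, were higher by 1.04 and 0.75. The median was 0.08 for the histone list and 0.75 for the 3 tested small RNA genes, and a link between them was not tested. PIM1, a kinase induced by STAT5, had 369 and 367 FPKM in the shallower and 278 and 285 in the deeper libraries, with controls between 347 and 373. Of 19 tested JAK-STAT genes 7 were lower and 2 higher, beside 8.38% and 8.42% of all genes. The count of lower JAK-STAT genes was 1 without shNYNRIN replicate 3 or 4.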

How the data were processed

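Gene levels came from 2 deposited tables, which the authors gave as FPKM in 7 libraries, read as such from the column sums, and as whole-number scores without a stated unit in shCTL replicate 3. The submitters' processing notes list Bowtie 0.12.9, Cufflinks 2.1.1 and HTSeq, and the builds mm10 and hg38 without a role, and neither annotation nor strandedness is stated there. The authors' deposited normalized signal, log2 fold change and p-value columns of the first table were not used. The first table held 13068 genes, all of at least 1 FPKM in 1 of its libraries, and the second 35971. The tables were matched by gene ID, and since they were normalized separately, every level compared across them rests on FPKM alone.

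Values were taken to log2(FPKM + 1), which understates the change of low genes, and the 12691 genes of at least 1 FPKM in 2 libraries were tested with limma 3.58.1 in R 4.3.3 (moderated test with a mean-variance trend, Benjamini-Hochberg adjustment). The shNYNRIN libraries were fitted alone, with 2 residual degrees of freedom, and the control difference and the difference of table differences came from a group-by-table fit of 7 libraries with 3. The test was checked on simulated data. Genes were named by a rule: the largest changes called, those also called in the difference of table differences or in the controls, and up to 4 called members of each list in each direction, of which a part is described. Members, lists and the rule were chosen with earlier results of these data known. Replicates with the same title number did not deviate together within a table (r = -0.067 and -0.058 over 5395 genes), so title numbers were not taken as pairs. The library names number the controls otherwise, across the tables, and this check could not show a grouping by those numbers. Alternatives covered the pseudocount, filter, scaling, trend, shCTL replicate 3 and leaving out each library. The depth of the libraries is known only as ratios, so no counting intervals are given.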

Additional observations from a re-analysis of the deposited data

Results flagged for a closer look

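The table difference of the shNYNRIN libraries differed from that of the shCTL libraries at 2667 genes by the limma test of the difference itself. The values that follow are shNYNRIN minus shCTL of the table differences in log2(FPKM + 1), with an adjusted p under 0.05 for each. They rest on shCTL replicate 4 as the one control of the second table. NYNRIN had -0.85, TXNIP -0.71 and ARRDC4 -0.53.

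Among signalling genes, FOS had 1.51, FOSB 1.44, EGR1 1.20, NR4A1 0.96, GADD45B 0.96, PTGS2 1.32, ADAMTS1 1.43, PHLDA1 1.43, DUSP6 1.13 and ETV5 0.62. Among genes of amino acid supply and the stress response, CHAC1 had 2.40, DDIT4 1.06, ATF3 0.88, ATF5 -0.84, PSAT1 1.36, PHGDH 1.03, SLC7A11 1.20, SLC38A2 0.82, SLC7A5 0.65, SLC6A8 -2.36 and AARS1 0.65. All of these except ATF5 and SLC6A8 were positive.

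Among cell cycle genes, TYMS had -1.36, DUT -0.95, E2F1 -0.53, MCM10 -0.65, CDC20 -0.68, CCNA2 -0.59, CDKN2D -0.75, CDKN1A -0.91 and CDKN2C 0.55. CDKN2C was the one positive value among them. Among respiratory and vesicle genes, NDUFA1 had -1.70, NDUFB5 -0.83, ATP5PD -0.55, SDHB 1.22, CHMP3 -1.07, ATG9A -0.80 and SEC22B -0.89. Among redox, metal and chaperone genes, NFE2L2 had 0.71, CAT -0.52, GPX1 -0.43, MT2A -1.45, HSPH1 -1.14 and DNAJA1 -0.82.

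Among haematopoietic and surface genes, GATA2 had 0.44, CEBPB 0.73, HHEX 0.88, LMO2 0.62, ITGA4 1.06, ITGA5 0.65, CD44 0.77 and CD24 0.48. In the BCL2 family MCL1 had 0.45, BBC3 0.73, PMAIP1 0.33 and BCL2 -0.68. Of the other genes named, HPGD had 2.005, ALDH1A1 1.69, SAT1 1.10, H2BC21 1.16, H3-3B 0.51, THBS1 -0.76, BNIP3 -1.38 and PIM1 -0.29.

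The second table lists 22903 genes that the first does not, and these entered no comparison between the tables. Of them 99 had at least 1 FPKM in both deeper knockdown libraries, and 83 of these lay above shCTL replicate 4 in both. That level was asked of the knockdown libraries and not of the control, so a place above the control is in part built in. EGR2, an immediate early relative of EGR1, was listed at 1.60 and 1.83 FPKM beside 0.636 in shCTL replicate 4, and H2BC7 at 2.39 and 2.25 beside 0.551. Both were named after their values were seen, and with 1 control no test was made.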

How the results depend on the processing

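The count of 2132 genes between the knockdown arms was 882 without the mean-variance trend and 589 to 2357 when 1 library was left out, the lowest without shNYNRIN replicate 3. The control count of 1606 was 551 without the trend, 2655 with shCTL replicate 3 as deposited, 2788 with 0.5 added to it, 2451 with 0.5 added at 10 FPKM or more, and 526 to 547 with 1 control left out. Under upper-quartile scaling the share of higher control calls was 37.0%, beside 47.1%. The count of 2667 for the difference of table differences ran from 1479 to 2627 with 1 library left out. With shCTL replicate 3 in place of replicate 4, SDHB turned its sign, to -0.37 (adjusted p = 0.397) in limma, alone among the called values of genes named, and over all genes 16 control calls and 7 calls of the difference took the opposite sign, as 1 call of the difference did under quantile normalization. The number of lists with 3 or more called members, 32, ran from 22 to 32, and the NYNRIN difference of -1.08 from -1.30 to -0.63. The cause of these changes was not tested, except that fewer libraries leave fewer degrees of freedom. The choices with 10 FPKM and 0.5 added together, and the second replicate block below, were made after seeing the data.

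With the replicate number of the titles as a replicate block, 2722 genes were called in the difference of table differences, 2343 of the 2667 among them with the same sign, and 2599 at 10 FPKM or more. With 2 libraries an arm, and 1 FPKM control in the second table, the tests cannot separate knockdown depth from the table, and differences of genes near 1 FPKM are compressed by the pseudocount.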
